A study of Rattus norvegicus with 2 samples.

Results

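Peaks in intron 2 and later introns are the enriched regions of a ChIP-seq peak list that lie inside a gene, past the first intron of the annotated transcript. They were taken as every peak whose annotation names an intron numbered 2 or more of a transcript, and are called later-intron peaks here. They were 6299 of 28706 peaks, 21.9% of the list (95% Wilson interval 21.5 to 22.4%), and 50.1% of the 12575 intron peaks (49.2 to 51.0%). The library came from myocardium of male Wistar rats after abdominal aortic constriction (AAC), an operation that narrows the aorta above the renal arteries and loads the heart with pressure. Chromatin from sonicated nuclei was isolated with an antibody that the labels name by vendor and catalogue number. From the series title, the target was taken to be H3K18la, the lactylated form of lysine 18 in histone H3. The labels list 2 samples, a ChIP library and an input library, both with replicate number 3. The age of the rats, how many of them gave chromatin and whether any had vagal stimulation are not stated in the labels. The input library had no values here, so every value below describes 1 ChIP library of AAC myocardium, with no replicate error and no test.

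H3K18la is an acyl mark on the histone H3 tail, built from lactate-derived groups, and is known from active promoters and from enhancers. Introns of long genes often hold enhancers, and those past intron 1 can act on the host gene's own promoter or on that of a neighbour. Introns also host microRNA and other small RNA genes, which is one reason why the gene that contains a peak and the gene that starts nearest to it can differ. In bulk tissue, the number of cells that carry a mark and the amount of the mark per cell cannot be told apart.

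MicroRNA genes beside these peaks are shown first, because they set the nearest-gene name of a minority of later-intron peaks. The nearest gene was protein-coding for 5083 of the 6299 peaks. How often a microRNA is nearest in other peak classes was not analysed here. A microRNA was the nearest gene of 409 later-intron peaks, and 73 of these lay within 10 kb of 36 microRNA genes, of which 11 were in the RefSeq microRNA table of GRCr8. Mir34a, whose product acts downstream of p53, had a peak of 8.31-fold in intron 3 of 3 of a transcript that the files do not pair with a name (chr5:167083411-167086338 in rn6), with its centre at -7617 bp from the Mir34a start. Mir139 had 3 such peaks, in intron 2 of 30 of Pde2a, a phosphodiesterase gene, of 7.10-fold, 4.19-fold and 3.28-fold. Mir339 had peaks of 6.71-fold, 3.24-fold and 2.73-fold in intron 2 of 4 of LOC498154. These are the 3 genes of that table with the strongest such peaks, and only the models AABR07049316.1 (7.79-fold, in intron 3 of Nfia) and AABR07065617.1 (7.32-fold) came between them. Their mature arms follow with the seed, bases 2 to 8, in capitals, and no seed was shared between them.
rno-miR-34a-5p: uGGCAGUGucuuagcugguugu
rno-miR-34a-3p: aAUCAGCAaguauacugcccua
rno-miR-139-5p: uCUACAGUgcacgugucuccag
rno-miR-139-3p: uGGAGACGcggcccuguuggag
rno-miR-339-5p: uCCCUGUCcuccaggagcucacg
rno-miR-339-3p: uGAGCGCCucgacgacagagcca

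At the other end of the range, 10 later-intron peaks had their centre within 250 bp of the start of some gene, where a later intron of one transcript meets the promoter of another or a later start of the same gene. Of these, 7 had a nearest gene in the RefSeq promoter table. The 3 strongest of them belonged to Tgfbrap1, which encodes a vesicle tethering protein bound to TGF-beta receptors (6.27-fold, 113 bp from the start, chr9:49896289-49896933 in rn6), Cfap97, a cilium-associated gene (4.37-fold, 200 bp) and Pafah2, a phospholipase gene (3.43-fold, 210 bp). Their RefSeq promoters, 250 bases before to 50 after the start, are printed to show the sequence class beside these peaks. The GRCr8 start in the table may differ from the rn6 start that the distance was measured from. Capitals mark GGGCGG and TGTTCT on either strand. GGGCGG is the core of the GC box, and TGTTCT is a half-site of the glucocorticoid receptor.
Tgfbrap1 promoter, GRCr8 chr9:52863392-52863691, minus strand: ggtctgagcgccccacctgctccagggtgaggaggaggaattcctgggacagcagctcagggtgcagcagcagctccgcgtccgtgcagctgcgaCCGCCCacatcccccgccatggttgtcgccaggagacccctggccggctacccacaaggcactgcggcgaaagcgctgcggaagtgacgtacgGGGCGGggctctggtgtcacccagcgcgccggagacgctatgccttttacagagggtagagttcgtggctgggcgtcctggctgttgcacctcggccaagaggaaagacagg
Cfap97 promoter, GRCr8 chr16:52856951-52857250, minus strand: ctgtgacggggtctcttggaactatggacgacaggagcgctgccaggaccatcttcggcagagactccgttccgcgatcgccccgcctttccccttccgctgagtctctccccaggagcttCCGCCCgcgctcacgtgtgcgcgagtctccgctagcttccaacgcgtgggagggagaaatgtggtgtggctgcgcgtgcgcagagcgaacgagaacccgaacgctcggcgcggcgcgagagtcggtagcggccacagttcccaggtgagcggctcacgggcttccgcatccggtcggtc
Pafah2 promoter, GRCr8 chr5:151896945-151897244, plus strand: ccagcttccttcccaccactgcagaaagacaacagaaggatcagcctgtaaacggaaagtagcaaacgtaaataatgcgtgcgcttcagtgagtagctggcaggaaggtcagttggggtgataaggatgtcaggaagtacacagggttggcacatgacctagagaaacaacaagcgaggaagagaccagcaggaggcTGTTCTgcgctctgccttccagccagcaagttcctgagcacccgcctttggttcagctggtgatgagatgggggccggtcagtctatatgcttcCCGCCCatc

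GGGCGG was found 2 times in the Tgfbrap1 window, 1 time in that of Cfap97 and 1 time in that of Pafah2, and 33.1% of the 33469 promoters of the table hold it. TGTTCT was found only in the Pafah2 window, against 20.7% of all promoters. TATAAA and TGACTCA were in none of these 3 windows, and 14.2% and 4.63% of all promoters hold them. The windows of Tgfbrap1 and Cfap97 were CpG-rich, with 23 and 38 CpG and 66.7% G+C each, whereas that of Pafah2 had 9 CpG and 53.7% G+C, near the medians of all promoters (7 CpG and 51.7%).

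Later-intron peaks were as strong and as wide as those of intron 1. Fold enrichment is the authors' ratio of a peak's signal to the local background of the peak caller. Its median was 4.11 in later introns (quartiles 3.63 and 4.77, interval of the median 4.09 to 4.16) and 4.09 in intron 1 (3.60 and 4.79, interval 4.08 to 4.14), so these intervals overlapped. Promoter peaks, the class at transcription start sites (TSS), had 4.09, exon peaks 4.14, peaks at transcription termination sites (TTS) 4.16 and intergenic peaks 4.16. Values of later-intron peaks reached from 2.31 to 11.6. Median width was 367 bp in later introns (259 and 587, interval 360 to 373 bp) and 376 bp in intron 1 (interval 369 to 383 bp). The median −log10 q, the caller's measure of confidence, was lower in later introns, at 3.76 (interval 3.66 to 3.86), than in intron 1, at 3.89 (3.89 to 3.95), and promoters, at 4.33 (4.08 to 4.41).

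The strong and the wide ends were filled to a like degree. A fold enrichment of at least 6 was reached by 378 later-intron peaks (6.0%, interval 5.44 to 6.61%) and by 375 intron 1 peaks (5.98%), against 6.31% of all peaks. A width of at least 2000 bp was reached by 125 later-intron peaks (1.98%, 1.67 to 2.36%) and by 106 intron 1 peaks (1.69%, 1.40 to 2.04%), against 1.79% of all peaks. Later-intron peaks covered 3.27 Mb and intron 1 peaks 3.26 Mb.

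**Figure D1:**
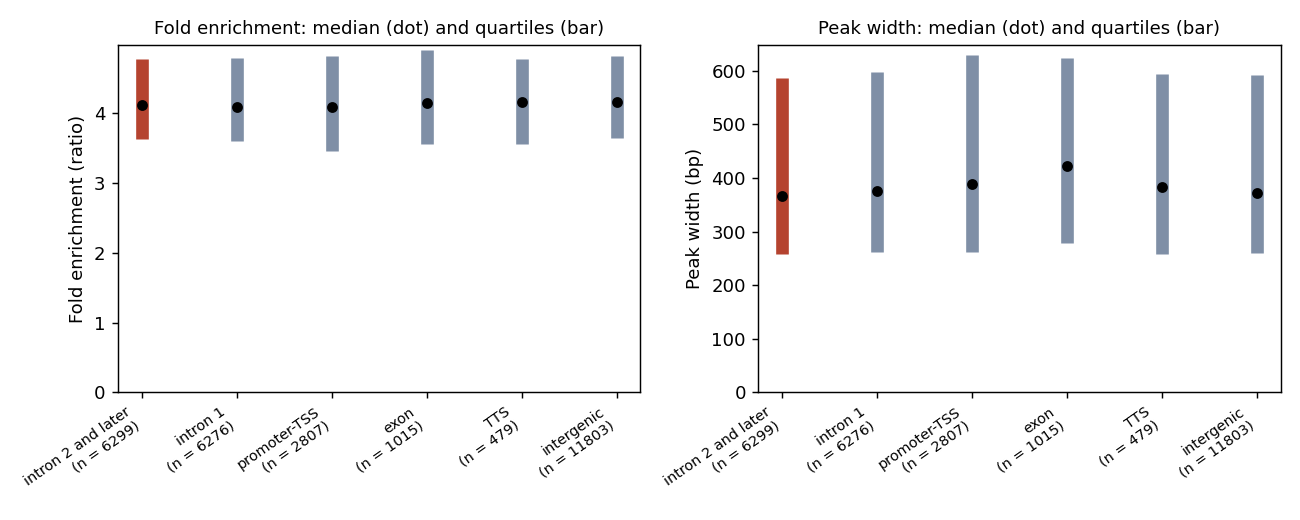
Fold enrichment (left, ratio) and width in bp (right) of the peaks of each annotation class of the AAC ChIP library, with the median as a dot and the quartiles as a bar. The medians of fold enrichment lie between 4.09 and 4.16 in all 6 classes, and those of width between 367 bp in later introns and 422 bp in exons.

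Peak numbers were highest in intron 2 and fell through the next introns, while median strength stayed within a narrow range. Intron 2 held 2014 later-intron peaks (32.0%), intron 3 held 1062 (16.9%), intron 4 held 631 and intron 5 held 412, down to 160 in intron 10. Introns 11 and beyond held 1129 together (17.9%). Few transcripts have high intron numbers, so the count was repeated within host transcripts of at least 10 introns, where intron 2 held 971 peaks, intron 5 held 243 and intron 10 held 160, against 2922 in intron 1. Intron 9 of these transcripts held 133, fewer than intron 10. The median fold enrichment of single introns from 2 to 10 ran from 4.08 in intron 2 to 4.23 in intron 5 (interval 4.09 to 4.32), with 4.11 in introns 11 and beyond. On either side of the rule's boundary, intron 2 had 4.08 (interval 4.05 to 4.13) and intron 1 had 4.09. The last intron of its transcript held 661 later-intron peaks (10.5%, 9.76 to 11.3%). Peaks were also ranked by intron number minus 1 over the number of introns of the transcript minus 1. A last intron thus always has rank 1. In steps of 0.25 from the start, 2660 peaks (42.2%) fell in the first step, followed by 1490 (23.7%), 824 (13.1%) and 1325 (21.0%). Their medians were 4.09, 4.11, 4.16 and 4.13-fold. The count was higher in the last step, which takes in all last introns, than in the one before it. The lengths of the introns, which set how much sequence each holds, were not analysed here.

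The peaks lay far from gene starts. The median distance from the peak centre to the nearest TSS was 29.9 kb in later introns and 4.91 kb in intron 1. Only 119 later-intron peaks (1.89%, 1.58 to 2.26%) lay within 1 kb of a TSS, compared with 1857 of intron 1 (29.6%, 28.5 to 30.7%) and 19.4% of all peaks. This follows in part from the rule, since later introns start further into the gene. Between 10 and 100 kb lay 4319 later-intron peaks (68.6%) and 2286 intron 1 peaks (36.4%), and beyond 100 kb 649 (10.3%) and 62 (0.988%). Of intergenic peaks, 64.5% and 10.4% lay in these ranges. Median fold enrichment of later-intron peaks was 4.19 within 1 kb (interval 3.95 to 4.59), 4.11 from 1 to 10 kb, 4.11 from 10 to 100 kb and 4.08 beyond 100 kb. The share of later-intron peaks of at least 6-fold was 9.24% within 1 kb (11 peaks) and 5.88% from 10 to 100 kb (254 peaks). In intron 1 these shares were 8.78% (163 peaks) and 4.64% (106 peaks). For 1765 later-intron peaks (28.0%) the nearest TSS lay downstream of the peak in that gene's direction, against 616 of intron 1 (9.82%).

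**Figure D2:**
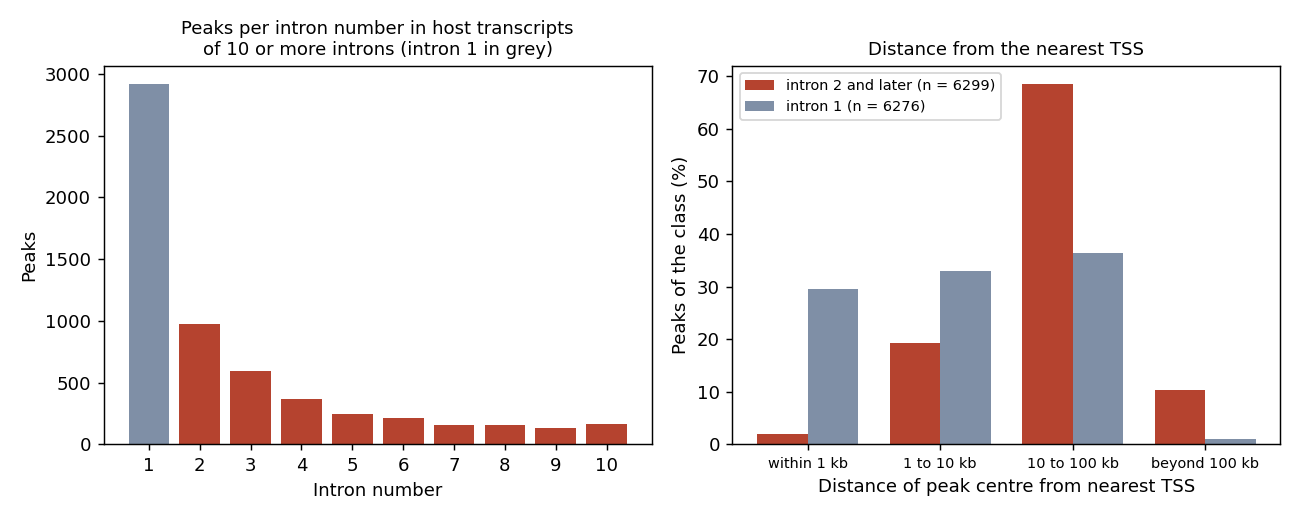
Number of peaks by intron number in host transcripts of at least 10 introns (left) and share of each class by distance of the peak centre from the nearest TSS (right, later introns in red, intron 1 in grey). Counts fall from 971 in intron 2 to 133 in intron 9, and 68.6% of later-intron peaks lie between 10 and 100 kb from a TSS, against 36.4% of intron 1 peaks.

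The intron numbers follow the transcript that the annotation chose. In 491 transcripts that held peaks in several introns and were also the nearest start, intron number and distance from the start gave the same order in each, with 0 exceptions. That order is fixed by numbering introns from the start, so it says nothing on which transcript was chosen. A later intron of that transcript can still be intron 1 of another transcript of the gene. Protein-coding introns held 6195 of the later-intron peaks, lincRNA introns 59, processed transcript introns 43 and antisense introns 2.

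Host transcripts numbered 1911, with a median of 13 introns (quartiles 7 and 21, at most 106). The file pairs a gene name with the hosts of 4891 peaks, in 1370 genes, and 1408 peaks (22.4%) lay in hosts left unnamed here. A host has a name here only where its transcript was the nearest start of some peak in the list, which favours a match. The share that follows leaves out peaks in unnamed hosts. Where the host had a name, it was also the nearest gene for 3333 peaks (68.1%, 66.8 to 69.4%). For the other 1558 peaks the nearest start belonged to another gene, which was protein-coding for 828 (53.1%) and a small RNA for 574 (36.8%), with 305 microRNAs, 114 snoRNAs and 86 snRNAs. Of the 1370 host genes, 414 (30.2%) also had a promoter peak, 646 (47.2%) an intron 1 peak and 554 (40.4%) neither. Intron 1 peaks in unnamed hosts count for no gene, so the 47.2% may be too low and the 40.4% too high. The same limit holds where a gene is said below to have no intron 1 peak. The same shares over all genes were not computed, so these counts do not set host genes apart from other genes. Among the 646 genes with both kinds of intron peak, the strongest later-intron peak exceeded the strongest intron 1 peak in 344 (53.3%). The numbers of peaks behind these maxima were not matched, and a maximum tends to rise with the number of peaks.

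Later-intron peaks were spread unevenly over their host transcripts. The spread of other peak classes and the length of the hosts were not analysed here. A single later-intron peak was found in 889 host transcripts (46.5%), 2 to 4 in 665, 5 to 9 in 225, and 10 or more in 132, which together held 2197 peaks (34.9%). Linked over gaps of at most 5 kb within a host, the peaks formed 3173 runs, of which 1873 were single peaks, 1300 held at least 2 and 233 at least 5. Peaks in runs of at least 2, 4426 in all (70.3%), had a median of 4.16-fold (interval 4.11 to 4.19) and 401 bp, and those alone had 4.05-fold (4.01 to 4.09) and 312 bp. A fold enrichment of at least 6 was reached by 310 peaks in runs (7.0%) and by 68 lone peaks (3.63%). Only later-intron peaks of the same host transcript were linked. A lone peak may therefore lie within 5 kb of a peak of another class or another transcript.

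The run with most peaks filled much of Zbtb16, which encodes a zinc finger transcription factor (PLZF) that glucocorticoids induce. It joined 37 peaks over 95644 bp (chr8:53002255-53097898 in rn6), and peaks took up 50.1% of that stretch. An unnamed transcript of 34 introns on chromosome 9 had the next, 30 peaks over 70126 bp (chr9:81264014-81334139), 56.7% of it in peaks, with a maximum of 7.14-fold. Sh3bp5, which encodes an exchange factor for RAB11 that also binds JNK, had 28 peaks over 40638 bp, the densest of these 3 at 61.2%. The other 9 of the 12 runs with most peaks held 15 to 21 each and lay in Tmtc1 (35001 bp), Tcf4 (38744 bp), Itpkb (31926 bp), Anks1a (31038 bp), Rhobtb1 (22323 bp), Sgms1 (17866 bp), Zmynd8 (31421 bp) and a pair of unnamed transcripts. Itpkb and Rhobtb1 fall outside the rule for named genes and were named after their values were seen.

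Zbtb16 also held 3 of the 5 strongest later-intron peaks. Its intron 3 of 6 carried 4 peaks, side by side, of 6.11-fold (1180 bp), 9.92-fold (2270 bp), 11.6-fold (7579 bp) and 10.4-fold (11707 bp), which span chr8:53051079-53074915 with gaps under 1 kb. The 11.6-fold peak is the strongest and the 11707 bp peak the widest of all later-intron peaks. Its intron 2 held 15 peaks from 2.83 to 4.77-fold, the widest of them 6217 bp at 4.32-fold. Intron 4 held 24 peaks from 2.67 to 7.61-fold, 3 of them of at least 6-fold. The intron 4 peaks farthest from the Zbtb16 start had Nnmt, a nicotinamide methyltransferase gene, as nearest gene, so 24 of the 43 Zbtb16 peaks carried its own name. Zbtb16 had 1 intron 1 peak, of 6.56-fold, and no promoter peak.

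Outside Zbtb16, the strongest later-intron peaks lay both within long runs of peaks, as in Tmtc1 and Anks1a, and in genes with few, as in Ppm1f, Uaca and Lnx1 with 5, 4 and 4 later-intron peaks. Tmtc1, which encodes a mannosyltransferase of the endoplasmic reticulum, had a peak of 11.3-fold in intron 5 of 19 (chr4:182791830-182794638), and the 22 peaks of that intron had a median of 4.56-fold. The peak of Ppm1f, which encodes a phosphatase acting on CaM kinases, reached 10.4-fold in intron 2 of 7 (chr11:88330183-88331118). Uaca, which encodes a coiled-coil protein linked to apoptosis, had 9.59-fold in intron 13 of 18 (chr8:65759295-65760360). In Anks1a, an adaptor gene of Eph receptor signalling, the peak had 9.58-fold in intron 11 of 24, with Tcp11 as nearest gene, and it was 1 of 21 later-intron peaks of that gene. Lnx1, a ubiquitin ligase gene, had 9.47-fold in intron 2 of 10. The other 4 of the strongest 12 lay in unnamed hosts, with Mtus1 (9.55-fold), Depp1 (9.30-fold), the microRNA model AABR07054329.1 (9.04-fold) and Timp4 (8.98-fold) as nearest genes. Timp4 encodes an inhibitor of matrix metalloproteinases that is abundant in heart.

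A wide peak is annotated by its centre, and 23 later-intron peaks reached over the nearest TSS. Nfkbia, which encodes the NF-kappaB inhibitor IkB-alpha, had a peak of 6282 bp and 7.81-fold (chr6:76264955-76271236) with its centre in intron 5 of 5, only 2.36 kb from the start of this short gene, so that the peak also covered the start. Pik3ip1, which encodes an inhibitor of PI3 kinase, had one of 4682 bp and 6.27-fold in intron 5 of 5. Cttnbp2nl, a partner of striatin complexes, had 5518 bp at 7.78-fold, and Acss1, the mitochondrial acetyl-CoA synthetase gene, 5505 bp at 7.0-fold with the snoRNA SNORA62 as nearest gene. Kalrn, a gene for a guanine nucleotide exchange factor, had 5434 bp at 8.04-fold in intron 4 of 58. The unnamed transcript of 34 introns held the remaining 2 of the widest 10, of 8054 bp at 4.75-fold and 5157 bp at 7.14-fold.

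The 10 host genes with most later-intron peaks held 401 of them (6.37%), and they differed in how the peaks were spread. Nfia, which encodes a nuclear factor I transcription factor, had 59 peaks over 322 kb, 38 of them in intron 3 of 11 of one transcript, and 11 and 1 in intron 9 of another 2 transcripts of 9 introns. Its strongest peak had 7.79-fold (chr5:116561734-116562559), its median was 4.11-fold, and only 15 of the 59 carried Nfia as nearest gene. Tcf4, which encodes an E-protein transcription factor, had 55 peaks over 335 kb with a low median of 3.88-fold, 52 of them in 12 introns of a transcript of 18 introns. Its strongest lay in introns 11 and 15 of that transcript, at 6.18 and 6.14-fold. Msi2, which encodes an RNA-binding protein that controls translation, had 44 peaks with a median of 4.12-fold, 21 of them in intron 3 and 20 in intron 4, and no promoter or intron 1 peak. Sgms1, the sphingomyelin synthase 1 gene, had 44 peaks, 13 in intron 2 and 20 in intron 5 of a transcript of 9 introns, with a maximum of 7.55-fold. Npepo, the aminopeptidase O gene, had 22 of its 37 peaks in intron 13 of 15, and its strongest, of 7.32-fold, had Mir23b as nearest gene.

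The remaining 4 of these genes had fewer peaks with higher medians. Ctif, which encodes a cap-binding translation factor, had the highest median of the 10 genes, 5.25-fold over 30 peaks, 8 of them of at least 6-fold, and no promoter or intron 1 peak. Its strongest peaks lay in intron 2 of a transcript of 4 introns (7.50-fold) and in intron 8 of a transcript of 11 introns (7.41-fold). Sh3bp5 had 30 peaks within 50.2 kb with a median of 4.49-fold, 7 of them of at least 6-fold, beside a promoter peak of 7.05-fold. Zmynd8, which encodes a reader of acetylated histones, had 30 peaks, 11 of them in intron 3 of 23 of one transcript and 4 in intron 3 of 21 of another, with a median of 4.33-fold and a maximum of 7.65-fold beside a promoter peak of 7.54-fold. Rftn1, the raftlin gene of lipid rafts, had 29 peaks, 17 of them in intron 2, with a median of 4.37-fold and a maximum of 8.15-fold beside a promoter peak of 8.93-fold.

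**Figure D3:**
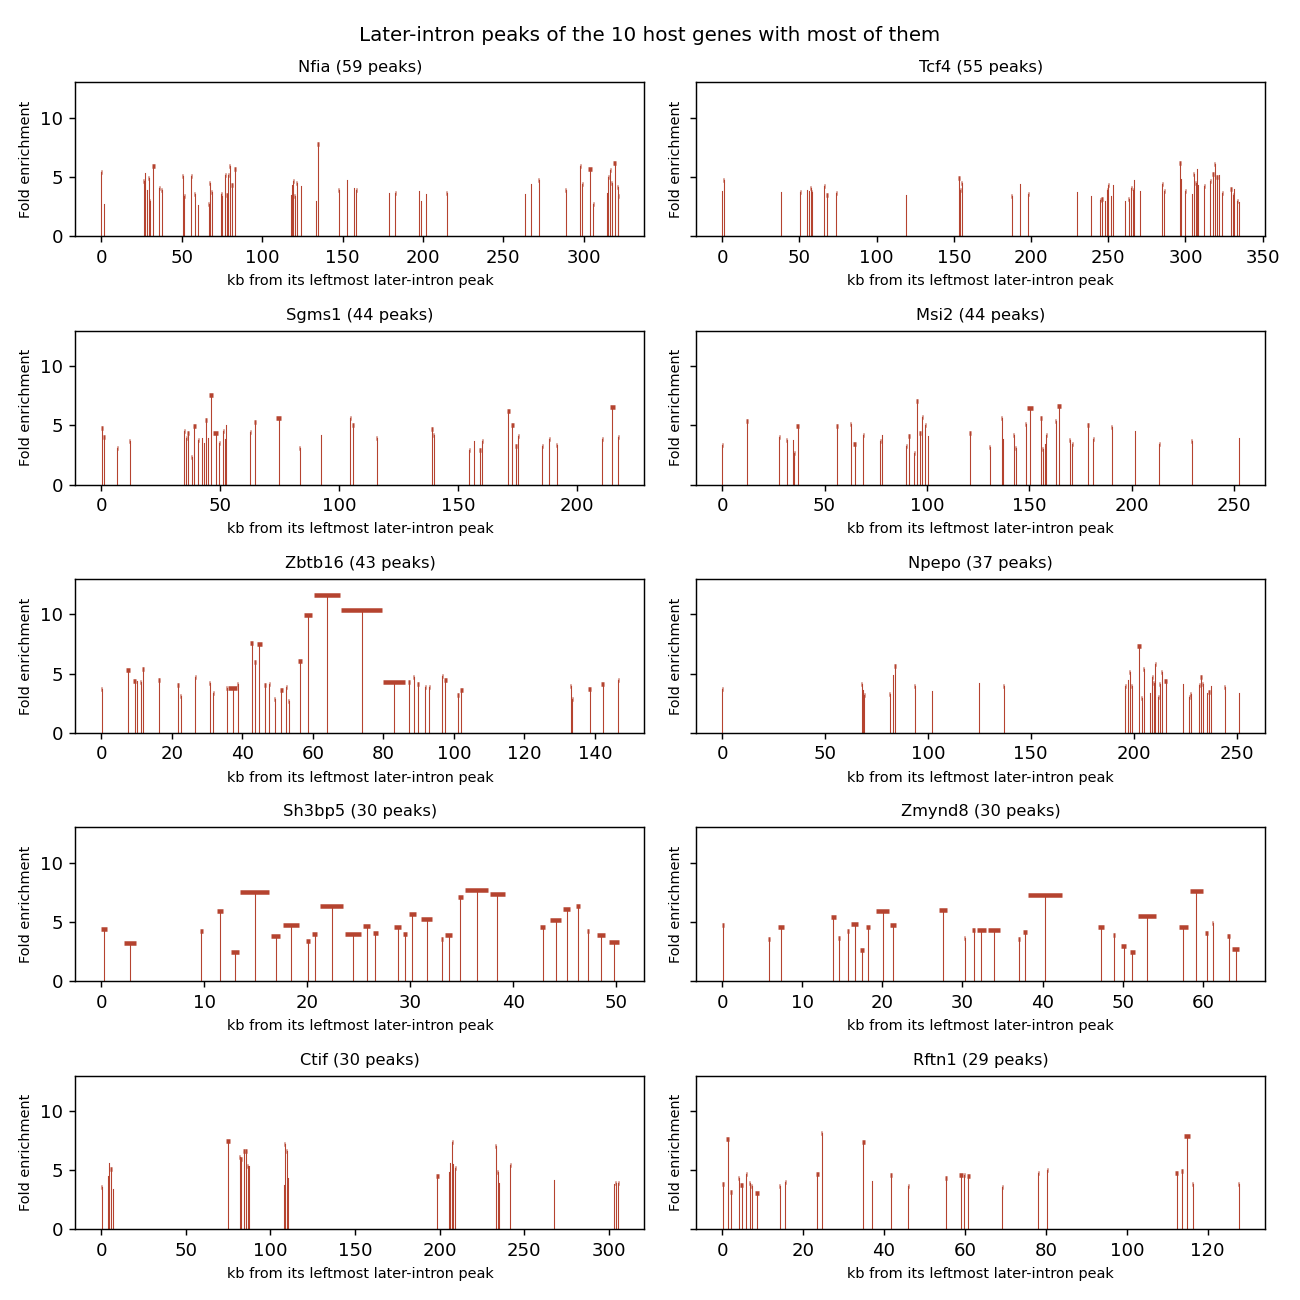
Fold enrichment (ratio) of each later-intron peak of the 10 host genes with most of them, against its position in kb from the leftmost such peak of the gene, with the width of a peak drawn as a horizontal bar. Zbtb16 has a compact group of wide peaks that reaches 11.6-fold, while the 55 peaks of Tcf4 reach 6.18-fold at most.

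Gene groups of the heart were read by how many of their members host at least 1 later-intron peak. Of the 23148 protein-coding genes of the background table, 1305 did (5.64%), with a median of 4.64 for the fold enrichment of the strongest later-intron peak of each. The share was not adjusted for gene length, and a gene with no intron or with 1 intron cannot host such a peak. Intron numbers of genes without a later-intron peak were not analysed. Any gene named below as hosting none may thus be one that cannot host such a peak. Peaks in unnamed hosts, 22.4% of later-intron peaks, count for no gene, so a gene said to host none may hold some of them. Mef2c, Pln, Nr3c1 and Ldb3, members of these lists named after their values were seen, counted as no host although they were the nearest gene of 18, 9, 9 and 5 later-intron peaks. The tissue label was set against marker lists by peaks of any class, which 27.1% of protein-coding genes had. Some peak was found at 25 of 32 sarcomere genes, 23 of 28 cardiac transcription factor genes, 24 of 28 endothelial genes, 15 of 28 fibroblast genes and 9 of 16 smooth muscle genes. The counts were 14 of 26 for housekeeping genes, 4 of 27 for immune cell genes, 3 of 20 for brain genes and 2 of 22 for hepatocyte and male germ cell genes.

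Of the cardiac transcription factor genes, 12 of 28 were hosts (42.9%, 95% Clopper-Pearson interval 24.5 to 62.8%), with 85 later-intron peaks, 59 of them in Nfia. With −log10 q of at least 5 the share was 21.4%, below the 32.3% of the glucocorticoid and clock list, while that of all protein-coding genes was 2.62%. Tbx20, a T-box factor of heart development, had 2 peaks with a maximum of 6.27-fold in intron 4 of 7. Meis1, a homeobox factor that restrains cardiomyocyte division, had 5.73-fold in intron 2 of 12, and Myocd, the coactivator of serum response factor, 5.0-fold in intron 5 of 13. Hand1, Hand2 and Hopx, regulators of heart development, hosted none, and whether they have a later intron was not analysed.

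Glucocorticoid response and circadian clock genes had a like share, 13 of 31 (41.9%, 24.5 to 60.9%) and a median of the strongest peaks of 5.32-fold. After Zbtb16 came Bhlhe40, a repressor of the clock, with 6.48-fold in intron 2 of 4, 0.895 kb from a start. Fkbp5, a co-chaperone of the glucocorticoid receptor, had 9 peaks up to 5.92-fold in intron 4 of 9, and Angptl4, an inhibitor of lipoprotein lipase, 5.91-fold in intron 3 of 6. Bhlhe41, Cebpb and Cebpd hosted none, although Cebpd was the nearest gene of 5 later-intron peaks in other hosts.

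Endothelial genes had 11 of 28 hosts (39.3%, 21.5 to 59.4%), and 17.9% with −log10 q of at least 5 or 21.4% from intron 3 on. Flt1, a receptor of vascular endothelial growth factor, had 19 peaks, the strongest of 6.80-fold in intron 23 of 29 (chr12:9186153-9186917), with Pan3 as nearest gene. Kdr, the main signalling receptor of that factor, had 4 peaks, all in the 3′ part of the gene, of 6.76-fold in intron 22, 5.63-fold in intron 24, 4.99-fold in intron 26 and 3.48-fold in intron 29 of 29. Ptprb, a phosphatase acting on endothelial receptors, had 10 peaks up to 5.33-fold, and Calcrl, an adrenomedullin receptor subunit, 2 up to 5.23-fold. Cdh5, Cldn5 and Arhgef15 hosted none.

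Genes of the contractile and anchoring apparatus had lower shares. Of the dystrophin complex, costamere and cell junction genes, 8 of 34 were hosts (23.5%, 10.7 to 41.2%), with a median of their strongest peaks of 5.75-fold. Itga9, an integrin subunit, had 17 peaks, 11 of them in intron 15 of 33, where 3 lay between 6.76 and 6.97-fold. Sorbs2 of the Z-disc had 10 peaks up to 6.16-fold, and Utrn, the paralog of dystrophin, 15 up to 5.89-fold, 13 of them in intron 2. Cav3, Ctnna1 and Ctnna3 hosted none. Sarcomere and Z-disc genes had 7 of 32 (21.9%, 9.28 to 40.0%). None of their 23 later-intron peaks reached 6-fold, against 6.0% of all later-intron peaks, and so few peaks do not set this list apart. Nebl, a nebulin relative of the Z-disc, had 8 peaks up to 5.73-fold, Actc1, cardiac actin, 2 up to 5.23-fold, Myoz2, a calcineurin-binding Z-disc protein, 2 up to 5.05-fold and Myom1 of the M-band 6 up to 4.95-fold in intron 37 of 38. Ankrd1, Cryab and Csrp3 hosted none.

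In calcium handling and ion channel genes, 6 of 30 were hosts (20.0%, 7.71 to 38.6%), and their peaks were modest, with a median of the strongest of 4.34-fold. None of the 30 genes hosted a peak with −log10 q of at least 5, where 2.62% of all protein-coding genes did. Cacnb2, a calcium channel subunit, had 7 peaks up to 4.88-fold, Camk2d, the cardiac CaM kinase II, 4 up to 4.71-fold, and Ank3, an ankyrin, 1 of 4.09-fold. Ank2, Asph and Cacna1c hosted none. Growth and hypertrophy signalling genes had a like share, 7 of 36 (19.4%, 8.19 to 36.0%), with a higher median of the strongest peaks, 5.56-fold. These hosts held 57 later-intron peaks, against 16 in the calcium handling and ion channel hosts. A maximum tends to rise with the number of peaks, so these medians do not compare the strength of single peaks. Igf1r, the insulin-like growth factor receptor, had 9 peaks, all in intron 2 of 20 and led by one of 8.81-fold (chr1:129039019-129039506). Prkce, protein kinase C epsilon, had 22 peaks, 13 of them in intron 7 of 11, where the strongest had 7.69-fold and 2543 bp. Pde4d, a cAMP phosphodiesterase, had 10 peaks up to 5.83-fold, and Adcy5, a cardiac adenylyl cyclase, 3 up to 5.56-fold. Adcy6, Adra1a and Adra1b hosted none.

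Metabolic and mitophagy genes were hosts in 7 of 34 (20.6%, 8.70 to 37.9%) and 3 of 33 (9.09%, 1.92 to 24.3%). The metabolic hosts were led by Acsl1, which activates long-chain fatty acids, with 5.92-fold in intron 2 of 20, Ppard, a fatty acid sensing receptor, with 9 peaks up to 5.44-fold, Hadhb of beta-oxidation with 4.82-fold and Pparg with 4.53-fold. Acaca, Acacb and Acadm hosted none. The series title names mitophagy, and its 3 hosts were Atg7, an activating enzyme of autophagosome formation (5.03-fold in intron 17 of 17, with Vgll4 as nearest gene), Atg13 of the initiation complex (3 peaks up to 4.63-fold) and Optn, a mitophagy receptor (4.29-fold). Ambra1, Atg14 and Atg16l1 hosted none. The mitophagy interval includes the background of 5.64%, as does that of the smooth muscle and pericyte genes described next. The intervals cover counting error only, and the lists were chosen with earlier results of these data known. Whether any list differs from the background was therefore not tested.

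Fibroblast and extracellular matrix genes had 6 hosts of 28 (21.4%, 8.30 to 41.0%) and smooth muscle and pericyte genes 3 of 16 (18.8%, 4.05 to 45.6%). Col4a1, a basement membrane collagen, had 9 peaks up to 7.24-fold in intron 2 of 51, and its neighbour Col4a2 had 2 up to 4.51-fold. Tgfbr3, a coreceptor of TGF-beta, had 22 peaks spread over 7 introns up to 5.92-fold, and Sparc, a matrix glycoprotein, 7 up to 5.38-fold. Col1a1, Col1a2 and Ccn2 hosted none. Synm, an intermediate filament protein, reached 6.33-fold, Smtn, smoothelin, 6.15-fold and Abcc9, a subunit of ATP-sensitive potassium channels, 4.88-fold, while Acta2, Cald1 and Cnn1 hosted none.

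The immune cell, brain, hepatocyte and germ cell, and housekeeping lists had 1 host each. These were Runx1 of 27 immune cell genes (3.70%, 0.0937 to 19.0%), Grin2a of 20 brain genes (5.0%), Ttr of 22 hepatocyte and male germ cell genes (4.55%) and Reep5 of 26 housekeeping genes (3.85%), with strongest peaks of 4.53, 4.23, 4.65 and 3.41-fold. Adgre1, C1qa and C1qb, Camk2a, Cntnap2 and Dcx, and Acr, Ahsg and Alb hosted none, nor did the housekeeping genes Actb, B2m and Chmp2a. Of the 14 housekeeping genes with a peak of any class, 7.14% hosted one in a later intron. The same share was 20.8% for all protein-coding genes. It was 52.2% for cardiac transcription factors, 45.8% for endothelial, 44.8% for glucocorticoid and clock and 36.4% for dystrophin complex genes. It was 33.3% for the calcium handling, growth signalling and smooth muscle lists, 28% for sarcomere, 25% for metabolic and 14.3% for mitophagy genes. Fibroblast genes had 6 of 15 with a peak, and the immune cell, brain and hepatocyte lists 1 of 4, 1 of 3 and 1 of 2.

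**Figure D4:**
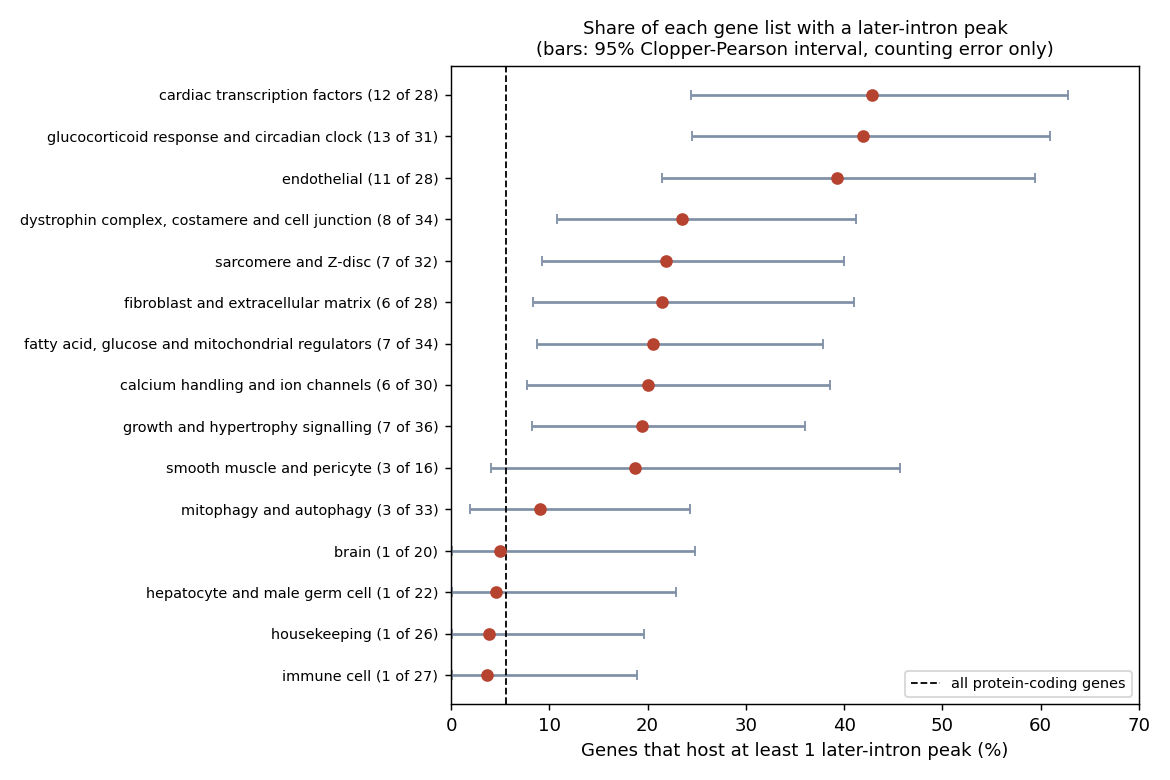
Percentage of the genes of each list that host at least 1 later-intron peak, with 95% Clopper-Pearson intervals as bars and all protein-coding genes (5.64%) as a dashed line. Shares run from 42.9% for cardiac transcription factors down to 3.70% for immune cell genes.

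Within 1 kb of a TSS the strongest were in Zyx, zyxin of focal adhesions (8.76-fold, 0.675 kb), Synpo, an actin-associated protein (8.32-fold), Agpat2, an enzyme of phosphatidic acid synthesis (7.89-fold), Pnrc1, a nuclear receptor coactivator (7.16-fold), and beside Insr, the insulin receptor gene, in an unnamed host (6.97-fold). Beyond 100 kb the strongest were in Etv6, an ETS repressor (8.27-fold, 115 kb), Agap1, an Arf GTPase activator (7.99-fold, 135 kb), Rftn1 (7.87-fold, 160 kb), Kalrn (7.61-fold, at -115 kb from the nearest start, one of its own) and Zbtb16 intron 4 (7.50-fold, at -102 kb from Nnmt). A negative distance means that the peak lies upstream of that start.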

How the data were processed

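The deposited peak list and annotation of 1 ChIP library were used. The submitters' processing notes name build rn6 and, with no order or role, HOMER, MACS2, Bowtie2, deepTools, SAMtools, Trim Galore and FastQC. Their versions are not given in the sources used here. A path in the annotation contains a q of 0.05, and no q exceeded 0.0493. Whether the input served as background is not given in the sources used here.

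The authors deposited fold enrichment as a ratio of a peak to local background, and q on the −log10 scale. Their deposited score repeats −log10 q and was not used. These per-peak values are the authors' and served only to describe, rank or filter peaks. Coordinates are 1-based rn6 positions. Depth is unknown, as the files give no library totals.

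Peaks were joined by name in Python 3.11.15 with pandas 2.3.3, numpy 2.4.6 and scipy 1.17.1. The host is the transcript named in a peak's annotation, with the gene name that the file pairs with it. Of 1370 host names, 1277 matched a current GRCr8 symbol, 29 an older one and 64 none. The 15 gene lists hold 424 genes. Named items were the 12 strongest and 10 widest peaks, the 10 hosts with most peaks, the 4 strongest hosts and the first 3 other genes of each list in alphabetical order, and the 5 strongest peaks within 1 kb and beyond 100 kb. Some genes that this rule names are not reported here. The microRNA and promoter examples were the strongest with an entry in the sequence tables. The members and lists were chosen with earlier results of these data known. Intervals are 95% and cover counting error only: Wilson for peaks, Clopper-Pearson for lists, order statistics for medians. The scripts were tested on simulated data.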

Additional observations from a re-analysis of the deposited data

How the results depend on the processing

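Of 45 values of the 7 main results under 9 alternatives, 23 stayed within their counting interval. The other 22 moved as follows. With −log10 q of at least 5, the share of all peaks was 19.8%, median fold enrichment 5.23, median width 619 bp, the share within 1 kb 2.86% and the share of protein-coding hosts 2.62%. With fold enrichment of at least 4, the median was 4.67, width 428.5 bp and hosts 4.25%. With widths of at least 300 bp, these were 4.23, 509 bp and 4.24%. From intron 3 on, the share of all peaks was 14.9%, that in the last intron 11.3%, within 1 kb 0.607%, with the host as nearest gene 59.4%, and hosts 3.99%. Without peaks within 1 kb of a TSS the share was 26.7%, and the share within 1 kb has no value there. With peaks merged over gaps of at most 1 kb, the share was 21.3%, the median 4.25-fold and the width 436 bp. Naming by the nearest gene gave 7.01% hosts, and genes with any peak as background gave 20.8%. That background and the omission of the 10 top hosts were chosen after seeing the data.

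The list intervals are wide, and most alternatives only remove peaks, which can only lower a share. At −log10 q of at least 5, the metabolic share went from 20.6% to 8.82% and the sarcomere share from 21.9% to 12.5%, each within its interval. Staying within an interval therefore does not show that a share was stable. Of 105 list shares, 93 stayed within their interval and 12 fell below it. With −log10 q of at least 5 these were cardiac transcription factors (21.4%), endothelial (17.9%) and, at 0%, calcium handling, immune cell, brain, hepatocyte and germ cell, and housekeeping genes. From intron 3 on they were endothelial (21.4%) and, at 0%, immune cell and housekeeping genes. Housekeeping genes were also at 0% with fold enrichment of at least 4, and immune cell genes with widths of at least 300 bp. The cardiac transcription factor share was below that of the glucocorticoid and clock list at fold enrichment of at least 4 (32.1% and 38.7%) and at widths of at least 300 bp (28.6% and 35.5%). No paired analysis was possible because only 1 library had values, and for the same reason no replicate could be left out. Depth sets which weak peaks are in the list, so a gene without a peak had none at this depth and threshold.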

Other observations

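The share of peaks that lay in intron 2 and later introns differed between chromosomes. It was 29.9% of 885 peaks on chromosome 18 (95% Wilson interval 27.0 to 33.0%), where Tcf4 and Ctif lie with 55 and 30 of the 265 later-intron peaks, and 27.7% of 1760 on chromosome 4 (25.7 to 29.9%). It was 16.7% of 915 on chromosome 19 (14.4 to 19.3%). Chromosome X had 26 later-intron peaks of 234 (11.1%, 7.70 to 15.8%), the lowest share among the chromosomes with more than 2 peaks. Gene content and intron length per chromosome were not analysed here.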
